A study of Mus musculus with 6 samples.

Results

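The genes described here are 37 genes of T cells, natural killer (NK) cells and natural killer T (NKT) cells, taken by their symbols out of 55357 genes in a table of transcript levels from 6 mouse tumours. All 37 symbols were found, each on 1 row. The tumours grew under the skin of C57BL/6J mice after injection of 250000 KPC1242 cells, a line of mouse pancreatic ductal adenocarcinoma (PDAC). In the FA group (3 tumours) mice received 2 mg of folinic acid, a reduced folate, by gavage once a day from day 8 to day 12, and in the PBS group (3 tumours) they received phosphate-buffered saline on the same days. Every tumour was taken on day 14, and the labels name no other genotype or agent. The tumour is a transplant of 1 cell line under the skin and not in the pancreas, and the labels do not state that each tumour came from its own mouse, so the p-values measure the spread between these tumours.

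T cells recognise peptides through a receptor of alpha and beta chains that signals through the CD3 chains, the kinases Lck and Zap70 and the adaptor Lat. NK cells carry no such receptor and read activating and inhibitory surface receptors, many of them encoded in the NK gene complex. NKT cells join both features: they carry a T cell receptor for lipids presented by CD1d, NK receptors such as Klrb1c (NK1.1), and the lineage factor Zbtb16 (PLZF). In pancreatic tumours such lymphocytes are typically few and are held back by inhibitory receptors and regulatory T cells.

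Levels are in TPM, in which length and library total have been divided out so that genes can be compared, and differences are FA minus PBS on the log2(TPM + 1) scale. Values of 3 tumours are given in the order of replicates 1, 2 and 3. TPM keeps no read depth, so the depth is unknown and no counting error can be attached to a low value. FA replicate 3 stood apart: across genes, which are not independent replicates, its correlation with the other tumours was at most 0.968, where the others reached 0.986 to 0.987 with their nearest neighbour. It also had the highest summed level of skeletal muscle markers (946 TPM against 11 to 138 in the others), endothelial markers (141 against 35.8 to 63.4) and macrophage markers (852 against 431 to 544). Of 4 ductal tumour markers, 3 were also highest in FA replicate 3, and Krt18 was highest in PBS replicate 2. Ductal keratin 19 (Krt19) was at 1071 to 1312 TPM in every tumour. Epcam was at 111.11 TPM in FA replicate 3 and 26.13 to 67.17 TPM in the others. The descriptions of the samples begin with the same code within a group and a different one between groups, so whatever that code marks and the treatment cannot be told apart. In whole-tumour RNA, fewer cells of a type and less RNA per cell cannot be told apart either.

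Most of the lymphocyte genes were faint. Of the 37, 34 were above 0 TPM in every tumour and 3 (Cd3d, Cd8a and Ncr1) in 5 of 6. Only 12 averaged at least 1 TPM, 22 lay from 0.1 to under 1 TPM, and Cd8a, Cd8b1 and Tbx21 lay under 0.1 TPM. Tcf7, Tigit and Trbc2 together made up 56.9% of the summed level of all 37, with means of 16.2, 9.54 and 7.96 TPM. The CD3 chain genes, through whose products the T cell receptor signals, averaged 0.202 (Cd3d), 0.218 (Cd3e), 0.433 (Cd3g) and 0.665 TPM (Cd247). Levels within the set were thus uneven: Tcf7, Tigit and Trbc2 stood far above the CD3 chain genes. Trbc2 is itself a T cell receptor gene, as is Trac, which averaged 2.37 TPM. In GENCODE M21, 23 of the 37 genes overlap no other gene and 5 overlap a protein-coding one (Cd247, Cd27, Foxp3, Gata3 and Klrb1c). Neither the gene models behind these levels nor the use of strand in counting is stated, so reads from such overlaps cannot be told apart. Over the 6 tumours, Trbc2 had the lowest rank correlation (Spearman's rho) of the 37 with the summed CD3 chain level, at -0.72. Trac had the highest, at 0.99. Both values are given as a description without a test. Whether Tcf7, Tigit, Trbc2, Gata3, Bcl11b and Lck were read from lymphocytes was not tested.

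The 2 genes for the constant part of the T cell receptor beta chain, Trbc1 and Trbc2, are shown first because their sequences decide how far their values can be separated. In GENCODE M21, aligned from the first base of the constant transcript, their first 259 bases are identical and the first difference falls at base 260. Bases 241 to 400 are printed, with the 4 differing bases in capitals.

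Trbc1: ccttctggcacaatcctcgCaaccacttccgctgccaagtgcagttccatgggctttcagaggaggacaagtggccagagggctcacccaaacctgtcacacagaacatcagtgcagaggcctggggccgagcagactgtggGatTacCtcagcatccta

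Trbc2: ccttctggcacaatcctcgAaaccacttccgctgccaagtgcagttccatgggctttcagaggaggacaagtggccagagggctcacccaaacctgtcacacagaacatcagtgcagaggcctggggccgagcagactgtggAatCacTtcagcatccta

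Reads from the shared stretch can be assigned to either gene, so each value alone is uncertain. Trbc2 was at 7.27, 6.68 and 6.77 TPM in FA tumours and 9.79, 9.93 and 7.34 TPM in PBS tumours, so every PBS tumour lay above every FA tumour. Trbc1 was at 0.45, 1.39 and 2.83 TPM in FA and 1.02, 1.39 and 0.97 TPM in PBS tumours, and the groups overlapped. The ratio of Trbc2 to Trbc1 ranged from 2.39 in FA replicate 3 to 16.2 in FA replicate 1.

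For Cd3d, Cd3e, Cd3g and Tigit the 250 bases before the annotated start are shown, because these CD3 genes code for parts of 1 complex and neighbour each other on chromosome 9, while Tigit stood far above them. Cd247, also of the complex, lies on chromosome 1, and its window, not printed, held an ETS core and no RUNX core. The sequences are those of RefSeq on GRCm38.p6, 5′ to 3′ on the gene's strand. Capitals mark matches to a RUNX core (TGTGGT, or ACCACA on the other strand) or an ETS core (AGGAAG, or CTTCCT), motifs of factor families that act widely in blood cells.

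Cd3e, chr9:45009612-45009861, - strand: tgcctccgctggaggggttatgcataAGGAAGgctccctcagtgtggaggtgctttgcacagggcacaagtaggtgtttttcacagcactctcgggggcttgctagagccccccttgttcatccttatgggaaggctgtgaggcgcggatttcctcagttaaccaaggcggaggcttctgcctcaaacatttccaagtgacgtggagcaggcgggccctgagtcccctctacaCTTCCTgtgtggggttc

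Cd3g, chr9:44980432-44980681, - strand: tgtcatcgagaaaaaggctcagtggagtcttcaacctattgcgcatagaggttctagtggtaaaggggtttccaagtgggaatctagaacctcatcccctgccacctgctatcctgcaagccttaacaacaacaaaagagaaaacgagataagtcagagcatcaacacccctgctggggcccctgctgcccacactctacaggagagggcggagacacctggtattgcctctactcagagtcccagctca

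Cd3d, chr9:44981536-44981785, + strand: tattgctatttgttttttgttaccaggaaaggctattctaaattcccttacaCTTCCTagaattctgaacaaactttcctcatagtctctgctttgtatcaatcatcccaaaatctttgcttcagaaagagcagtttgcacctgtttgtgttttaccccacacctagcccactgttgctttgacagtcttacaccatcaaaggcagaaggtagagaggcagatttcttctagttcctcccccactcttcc

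Tigit, chr16:43664185-43664434, - strand: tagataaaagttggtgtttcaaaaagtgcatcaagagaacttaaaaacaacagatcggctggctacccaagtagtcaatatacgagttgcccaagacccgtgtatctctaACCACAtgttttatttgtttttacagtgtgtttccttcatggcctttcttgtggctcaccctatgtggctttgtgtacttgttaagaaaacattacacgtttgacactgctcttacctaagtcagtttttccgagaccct

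The Cd3e window held 2 ETS cores, the Cd3d window 1 and the Cd3g window none, and the Tigit window held 1 RUNX core. Windows were found for 24 of the 37 genes. The ETS core was present in at least 1 window of 14 of these (58.3%) against 32.3% of 27025 genes, and the RUNX core in 7 (29.2%) against 15.9%. These matches describe letters only, and a window without a match says nothing about binding.

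FA was compared with PBS by limma over all 15023 genes that averaged 1 TPM or more, of which 12 are lymphocyte genes. None of the 15023 genes had an adjusted p under 0.05 (0% called), and so none of the 12 did, each with an adjusted p of 1 (limma, Benjamini-Hochberg). At an unadjusted p under 0.05 there was 1 of the 12, Trbc2, where 1.28% of all tested genes had one (192 genes). Of the 12, 8 had a higher and 4 a lower mean on the log2 scale in FA, with a median difference of 0.10 beside 0.002 for all tested genes, and without FA replicate 3 the median over the 11 then tested was 0.006. The other 25 genes were too low for this fit. For them an exact permutation test of 3 against 3 cannot go below p = 0.1. With no filter, limma called 2 of 31347 genes (0.00638%) and none of the 37.

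**Figure D1:**
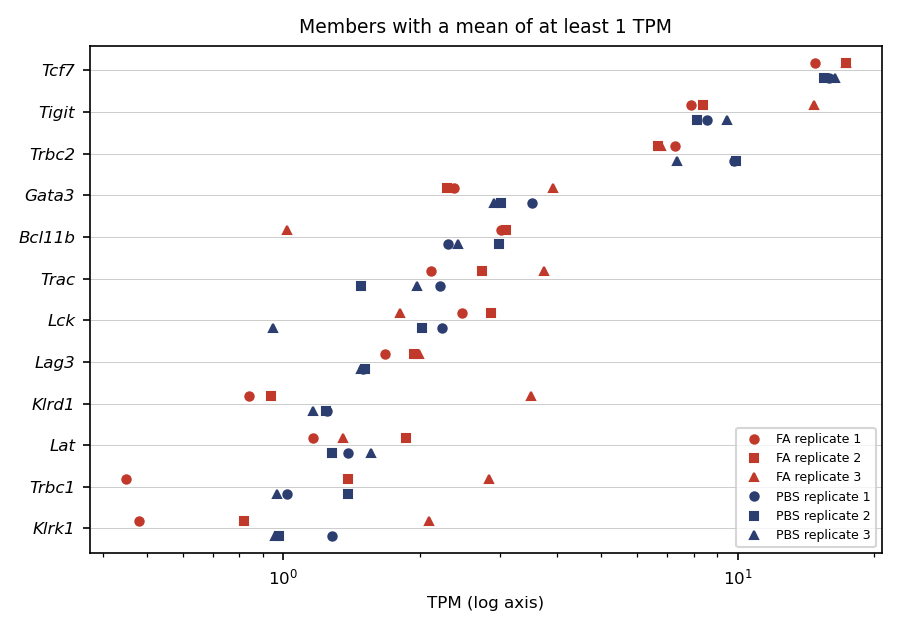
Levels of the 12 lymphocyte genes averaging 1 TPM or more, on a log TPM axis, with 1 point per tumour (red FA, blue PBS, symbol by replicate). Trbc2 is the only gene with all PBS points above all FA points, Lag3 the only one with all FA points above, and FA replicate 3 holds the highest point for 8 genes and the lowest for Bcl11b.

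Among the receptor chains, Trac, the constant gene of the alpha chain, was at 2.11, 2.73 and 3.74 TPM in FA and 2.21, 1.48 and 1.97 TPM in PBS tumours. Its 2 highest values were FA replicates 2 and 3, while FA replicate 1 lay within the PBS range. The difference was 0.41 ± 0.20 (SE), with a 95% interval from -0.08 to 0.89 and an unadjusted p of 0.0886. It was 0.25 without FA replicate 3, 0.27 with array weights, and 0.55 without FA replicate 1. Trbc2, the more abundant beta chain gene, differed by -0.33 ± 0.14, with an interval from -0.66 to 0.00 and an unadjusted p of 0.0483. The alpha chain gene and the abundant beta chain gene thus had estimates of opposite sign, and neither passed the adjusted threshold. Reads of the stretch shared with Trbc1 can be assigned to either gene, so the Trbc2 estimate alone is uncertain. The sum of the 2 beta chain genes was not tested. Trbc1 differed by 0.16 ± 0.35, which turned to -0.19 without FA replicate 3.

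The CD3 genes were all below the filter. Cd3d was at 0.37, 0.25 and 0.30 TPM in FA and 0.13, 0.16 and 0 TPM in PBS tumours. Every FA value lay above every PBS value (exact permutation p = 0.1, the smallest possible), as it did for 3.56% of the 10667 genes with a mean from 0.03 to under 1 TPM (PBS above FA in 3.07%). This was the only one of the 25 faint genes without overlap. Cd247, the zeta chain, was at 0.40, 0.89 and 1.52 TPM in FA and 0.42, 0.30 and 0.46 TPM in PBS tumours. Cd3e, a core chain, was at 0.03, 0.39 and 0.45 TPM in FA and 0.16, 0.16 and 0.12 TPM in PBS tumours, and Cd3g at 0.21, 0.41 and 0.78 and at 0.52, 0.32 and 0.36 TPM. In the last 3 genes FA replicates 2 and 3 exceeded FA replicate 1, and FA replicate 1 had less than the PBS median.

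Summed over these 4 genes, CD3 stood at 1.01, 1.94 and 3.05 TPM in FA and 1.23, 0.94 and 0.94 TPM in PBS tumours. Cd247 gave 0.89 of the 1.94 TPM in FA replicate 2 and 1.52 of the 3.05 TPM in FA replicate 3, the highest sum. Ptprc (CD45), carried by nearly all leukocytes, was at 7.18, 9.48 and 13.25 TPM in FA and 9.50, 6.75 and 7.80 TPM in PBS tumours, and it was highest in the same tumour. Dividing by Ptprc was chosen after seeing the values, so it is given without a test. CD3 per Ptprc was 0.141, 0.205 and 0.23 under FA, against 0.129, 0.139 and 0.121 under PBS. The lowest FA tumour lay above the highest PBS tumour only by a margin near the rounding of TPM to 2 decimals. No share of all genes was computed for such a summed ratio. None of the 4 CD3 genes alone, Cd3d included, and none of the 25 faint genes was without overlap in this ratio. Trac per Ptprc was 0.294, 0.288 and 0.282 under FA, against 0.233, 0.219 and 0.253 under PBS. Of the 12 tested genes, Trac was the only one with FA above PBS in this ratio, where 0.186% of all tested genes were, and Gata3 the only one with PBS above, where 1.49% were. With Ptprc as a covariate in the fit, the Trac difference was 0.21 with an adjusted p of 1 (limma).

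The 3 proximal signalling genes were each highest in FA replicate 2, and their groups overlapped or touched. Lck, the kinase that starts receptor signalling, was at 2.47, 2.87 and 1.81 TPM in FA and 2.24, 2.02 and 0.95 TPM in PBS tumours, a difference of 0.33 ± 0.24 with an interval from -0.25 to 0.91. PBS replicate 3 was the lowest, and without it the difference was 0.10. Lat, the adaptor that assembles the signalling complex, was at 1.16, 1.86 and 1.35 TPM in FA and 1.39, 1.28 and 1.56 TPM in PBS tumours, a difference of 0.02 ± 0.17. Zap70, the kinase that binds the CD3 chains, was at 0.45, 0.58 and 0.51 TPM in FA and 0.26, 0.34 and 0.45 TPM in PBS tumours. The lowest FA tumour and the highest PBS tumour shared the value 0.45 TPM. FA replicate 3, which had the highest CD3 sum, was not the highest for any of them.

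The adhesion and costimulatory receptors lay between 0.04 and 1.40 TPM in all tumours. Cd2, an adhesion receptor of T and NK cells, was at 0.75, 1.01 and 1.40 TPM in FA and 0.77, 0.79 and 0.65 TPM in PBS tumours. Cd5, which dampens receptor signals, was at 0.12, 0.45 and 0.45 TPM in FA and 0.20, 0.16 and 0.21 TPM in PBS tumours. Icos, an inducible costimulator, was at 0.05, 0.38 and 0.37 TPM in FA and 0.21, 0.12 and 0.11 TPM in PBS tumours. In all 3 genes FA replicates 2 and 3 were above every PBS tumour and FA replicate 1 was not. The costimulators Cd28 and Cd27 stayed within 0.08 to 0.17 and 0.25 to 0.37 TPM, and Cd6 had the same mean in both groups (0.187 TPM).

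Of the coreceptors, Cd4, which marks helper and regulatory T cells, was at 0.31, 1.55 and 0.81 TPM in FA and 0.72, 0.92 and 0.21 TPM in PBS tumours. Both the highest and the second lowest value belonged to FA tumours. Cd8a, the alpha chain of the cytotoxic T cell coreceptor, was at 0.02, 0.06 and 0.15 TPM in FA and 0.04, 0.06 and 0 TPM in PBS tumours. Its partner chain gene Cd8b1 was at 0.03, 0.16 and 0.11 TPM in FA and 0.03, 0.04 and 0.06 TPM in PBS tumours. The groups overlapped for both genes. Cd4 can also be transcribed in myeloid cells. The macrophage receptor gene Adgre1 was at 9.77 to 18.74 TPM, and over the 6 tumours it had r = 0.30 (exact permutation p = 0.574, adjusted over 26 such tests p = 0.696) and rho = 0.54 (exact p = 0.297, adjusted p = 0.534) with Cd4, with r = 0.39 without FA replicate 2 and PBS replicate 3.

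Regulatory T cell genes were detected in every tumour. Foxp3, their lineage factor, was at 0.27, 0.36 and 0.57 TPM in FA and 0.34, 0.40 and 0.31 TPM in PBS tumours. Il2ra, the alpha chain of the interleukin-2 receptor, was at 0.21, 0.47 and 0.82 TPM in FA and 0.35, 0.22 and 0.25 TPM in PBS tumours. Ctla4, an inhibitory receptor, was at 0.15, 0.39 and 0.38 TPM in FA and 0.44, 0.26 and 0.22 TPM in PBS tumours. All 3 genes were lowest in FA replicate 1. The group means were 0.40 and 0.35 TPM for Foxp3 and both 0.307 TPM for Ctla4.

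**Figure D2:**
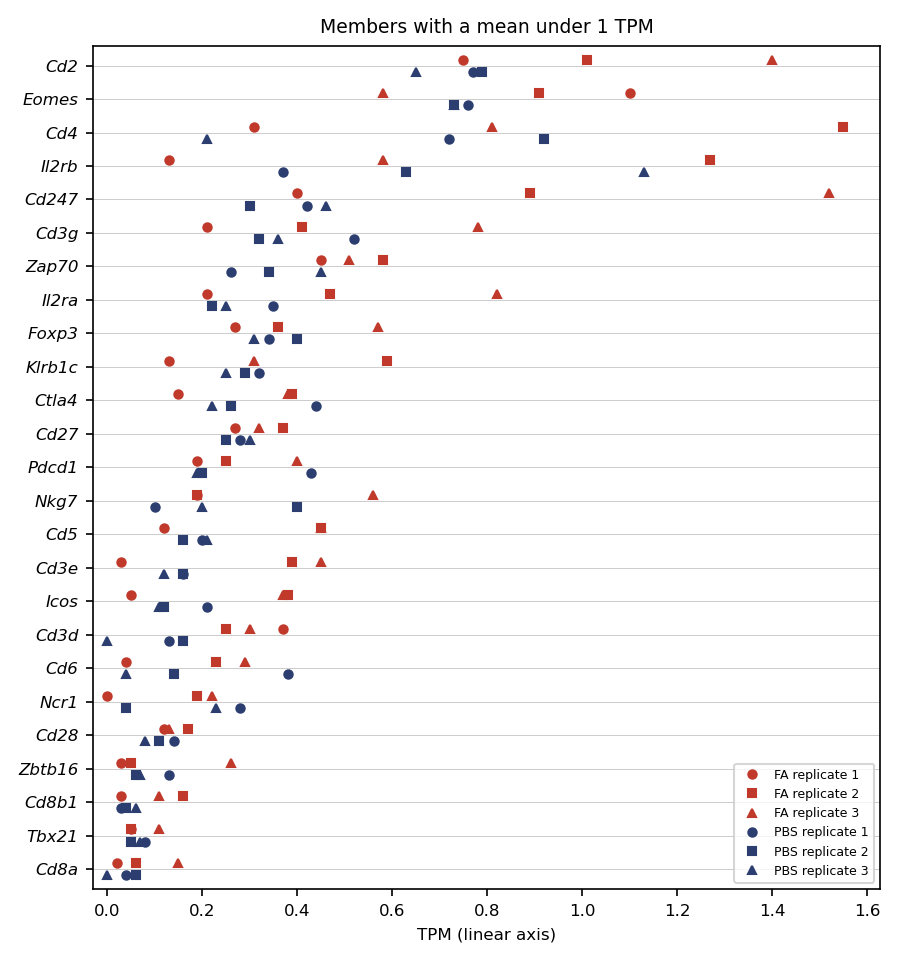
Levels of the 25 lymphocyte genes with a mean under 1 TPM, on a linear TPM axis, with 1 point per tumour (red FA, blue PBS, symbol by replicate). FA points are widely spread, with FA replicate 1 at the low end for many genes, and Cd3d is the only gene whose FA points all lie above its PBS points.

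NK and NKT genes were led by 2 receptors of the NK gene complex. Klrd1 (CD94), a chain of inhibitory and activating NKG2 receptors, was at 0.84, 0.94 and 3.5 TPM in FA and 1.25, 1.24 and 1.16 TPM in PBS tumours. Klrk1 (NKG2D), an activating receptor, was at 0.48, 0.82 and 2.09 TPM in FA and 1.28, 0.98 and 0.96 TPM in PBS tumours. Both genes ranked the 6 tumours in the same order, with FA replicate 3 far above the rest and the other FA tumours below all PBS tumours. Klrd1 differed by 0.19 ± 0.35 and by -0.23 without FA replicate 3, and Klrk1 by -0.03 ± 0.29 and by -0.33 without FA replicate 3, where it averaged 0.904 TPM and so was not tested. Ncr1 (NKp46), a receptor largely restricted to NK cells, did not share that pattern, at 0, 0.19 and 0.22 TPM in FA and 0.28, 0.04 and 0.23 TPM in PBS tumours.

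Klrb1c, the NK1.1 antigen of NK and NKT cells, was at 0.13, 0.59 and 0.31 TPM in FA and 0.32, 0.29 and 0.25 TPM in PBS tumours. Il2rb, the beta chain through which NK and NKT cells receive interleukin-15, was at 0.13, 1.27 and 0.58 TPM in FA and 0.37, 0.63 and 1.13 TPM in PBS tumours. The granule protein gene Nkg7 was at 0.19, 0.19 and 0.56 TPM in FA and 0.10, 0.40 and 0.20 TPM in PBS tumours. No common ordering of tumours joined these 3 genes. Zbtb16, the NKT lineage factor, was at 0.03, 0.05 and 0.26 TPM in FA and 0.13, 0.06 and 0.07 TPM in PBS tumours, so that 2 FA tumours lay below all PBS tumours and FA replicate 3 above them.

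Lineage transcription factors held the widest range of levels. Tcf7, the TCF-1 factor of early and stem-like T cells and an effector of Wnt signalling in other cells, was at 14.80, 17.27 and 17.31 TPM in FA and 15.92, 15.48 and 16.38 TPM in PBS tumours, a difference of 0.04 ± 0.10 with an interval from -0.19 to 0.27. It was the most abundant of the 37, and the PBS values lay within the range of the FA values. Gata3, a factor of type 2 T cells that several epithelia also express, was at 2.38, 2.29 and 3.92 TPM in FA and 3.53, 3.02 and 2.91 TPM in PBS tumours (-0.13 ± 0.19, and -0.31 without FA replicate 3). Bcl11b, needed for T cell commitment, was at 3.01, 3.09 and 1.02 TPM in FA and 2.30, 2.98 and 2.42 TPM in PBS tumours, a difference of -0.15 ± 0.29 that turned to 0.19 without FA replicate 3. Bcl11b and Eomes (1.10, 0.91 and 0.58 TPM in FA and 0.76, 0.73 and 0.73 TPM in PBS) were lowest in FA replicate 3, where CD3 was highest. Tbx21 (T-bet), the factor of type 1 T cells and NK cells, was between 0.05 and 0.11 TPM in all tumours.

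The inhibitory receptors differed widely in mean level: 9.54 TPM for Tigit, 1.68 TPM for Lag3 and 0.277 TPM for Pdcd1. Tigit was at 7.89, 8.39 and 14.74 TPM in FA and 8.58, 8.13 and 9.49 TPM in PBS tumours, a difference of 0.17 ± 0.23 that turned to -0.09 without FA replicate 3. In GENCODE M21 Tigit overlaps no other gene, but the gene models behind these levels are not stated. Its level was 4.32 to 10.1 times the summed CD3 level of the same tumour, and the ratio was largest in PBS replicate 3, where Tigit was not highest. Lag3, which binds MHC class II, was at 1.67, 1.94 and 1.99 TPM in FA and 1.5, 1.51 and 1.48 TPM in PBS tumours, so every FA tumour lay above every PBS tumour, as in 2.48% of all tested genes. This Lag3 difference was 0.20 ± 0.14 with an interval from -0.13 to 0.53 and an unadjusted p of 0.2. Trbc2, the 1 gene with PBS above FA, compares with 2.22% of all tested genes. Pdcd1 (PD-1) was at 0.19, 0.25 and 0.40 TPM in FA and 0.43, 0.20 and 0.19 TPM in PBS tumours.

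**Figure D3:**
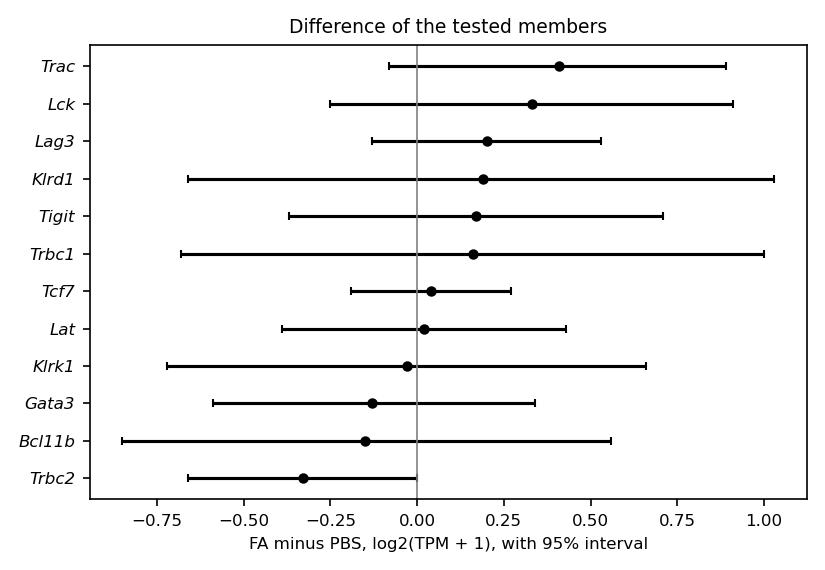
FA minus PBS difference on the log2(TPM + 1) scale for the 12 tested lymphocyte genes, with 95% intervals from limma, in order of size. Trac has the highest estimate (0.41) and Trbc2 the lowest (-0.33), and 11 of 12 intervals include 0.

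Single tumours held most of the extreme values. FA replicate 3 held the highest value for 18 of the 37 genes and FA replicate 2 for 11, while FA replicate 1 held the lowest for 17 and PBS replicate 3 for 7. Over all tested genes FA replicate 3 was highest in 29.3% and FA replicate 1 lowest in 12.8%, and over the 10667 fainter genes in 21.3% and 8.42%. Mean TPM was higher in FA for 30 of the 37, lower for 5 and equal for 2, where 51.8% of tested and 53.5% of fainter genes were higher. Without FA replicate 3 it was higher for 21 of 37 (56.8%), beside 54.4% of tested and 50.5% of fainter genes. The SD was larger in FA than in PBS tumours for 29 of 37 genes (78.4%), where it was for 70.1% of tested and 52.6% of fainter genes.

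**Figure D4:**
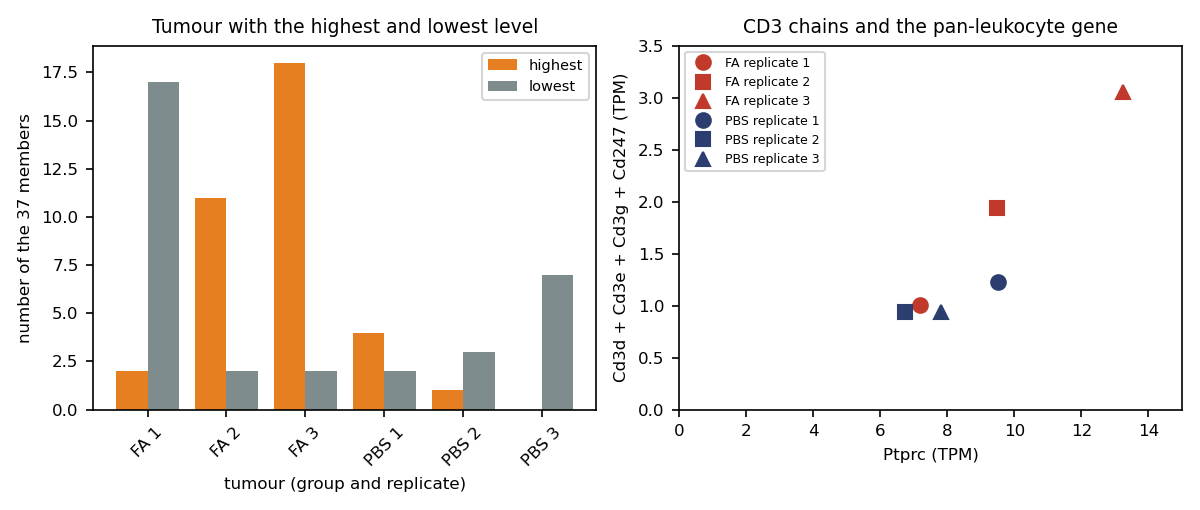
Left, the number of the 37 lymphocyte genes for which each tumour had the highest or the lowest TPM (ties counted for no tumour). Right, the summed TPM of the 4 CD3 chain genes against the TPM of Ptprc, 1 point per tumour, with FA replicate 3 at the top right (3.05 and 13.25 TPM) and FA replicate 1 among the PBS tumours.

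Spearman's rho was taken as a description for all 561 pairs of the 34 genes above 0 TPM in every tumour. Its median was 0.41, and 76.6% of pairs were above 0, beside a median of 0.03 and 51.1% over all pairs of 20510 genes above 0 in every tumour. A rho of at least 0.8 was reached by 63 pairs (11.2%, beside 4.47%). All pairs share the same 6 libraries. Within roles the median was 0.67 for receptor and CD3 chains, 0.64 for adhesion and costimulatory receptors, 0.66 for regulatory T cell genes, 0.37 for NK and NKT genes, 0.29 for inhibitory receptors, 0.20 for the kinases and adaptor, and -0.37 for lineage factors. Leaving out FA replicate 1 or FA replicate 3 gave an overall median of 0.30 each.

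**Figure D5:**
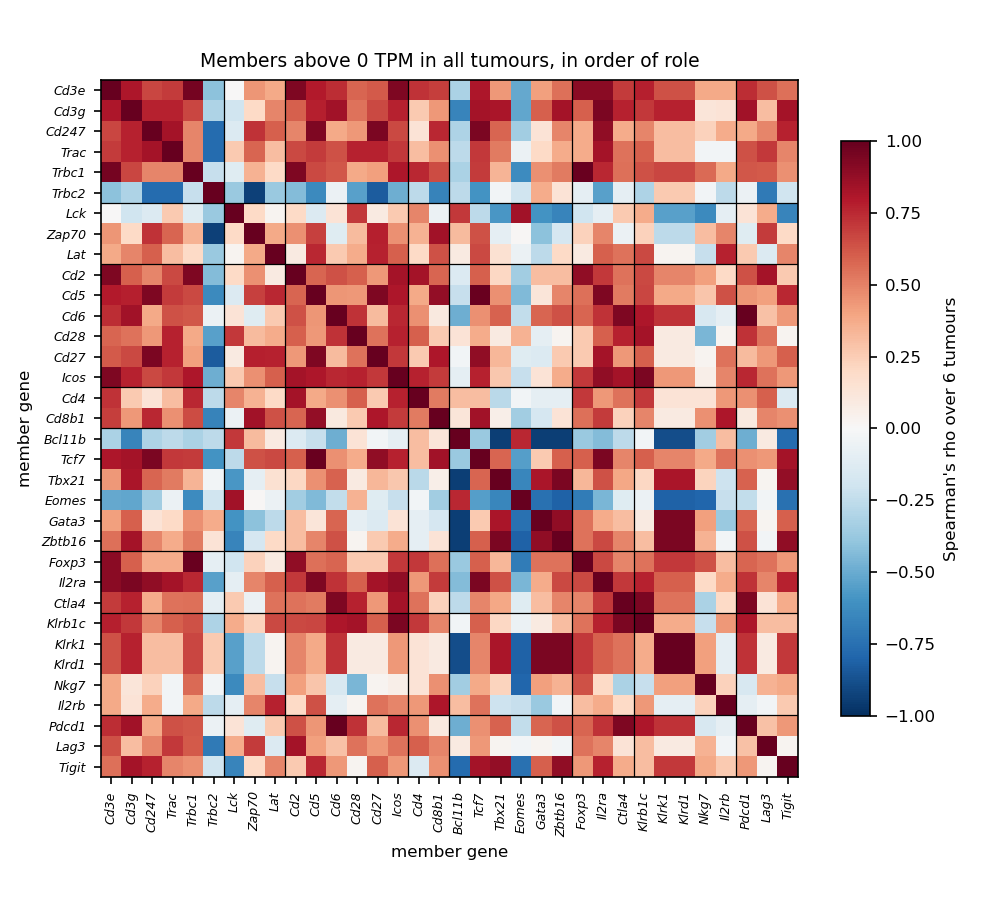
Spearman's rho over the 6 tumours for each pair of the 34 lymphocyte genes above 0 TPM in all tumours, ordered by role with black lines between roles (red positive, blue negative). Receptor, adhesion and regulatory T cell genes form mostly red blocks, and Trbc2, Lck, Bcl11b and Eomes carry most of the blue.

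Fixed pairs were tested over the 6 tumours with exact permutation of 720 pairings, and p-values were adjusted over 26 tests of 13 pairs. Cd3e and Cd3g had r = 0.79 and rho = 0.81 (exact permutation p = 0.0611 for each, adjusted p = 0.332), and r stayed at 0.79 without the 2 tumours farthest from the Cd3e median. Cd3e and Trac had r = 0.78 (exact p = 0.0639, adjusted p = 0.332) and rho = 0.70 (exact p = 0.139, adjusted p = 0.401), with r = -0.39 without the same tumours. Cd3e and Ptprc had r = 0.82 (exact p = 0.0444, adjusted p = 0.332) and rho = 0.67 (exact p = 0.161, adjusted p = 0.414), with r = 0.35 without these tumours, FA replicates 2 and 3. Foxp3 and Il2ra had r = 0.85 (exact p = 0.0528, adjusted p = 0.332) and rho = 0.66 (exact p = 0.175, adjusted p = 0.414), with r = -0.08 without FA replicates 1 and 3. In the last 3 relations r was thus lower without 2 tumours. Leaving out the farthest tumours narrows the range of the first gene, so the lower r cannot show what a relation rested on. Trac and Trbc2 had r = -0.68 (exact p = 0.119, adjusted p = 0.401) and rho = -0.77 (exact p = 0.103, adjusted p = 0.401), with r = -0.31 without FA replicate 3 and PBS replicate 2. The remaining pairs were weaker in r, from -0.15 (Ncr1 and Nkg7) to 0.52 (Foxp3 and Ctla4), with Cd3e and Lck at 0.19. Their rho ran from -0.2 (Ncr1 and Nkg7) to 0.71 (Cd4 and Foxp3). None of the 13 pairs passed, and 1 further pair (Gata3 and Krt5) could not be computed because Krt5 was listed at 0 throughout. Each treatment group holds 3 tumours, too few for a value within groups.

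Other genes of T cell receptor signalling, form a list of 21, of which 12 averaged at least 1 TPM, none was called, and 7 of the 12 were higher in FA and 5 lower, with a median of 0.084. Among those with the smallest unadjusted p were Ptprc (0.26 ± 0.22), the exchange factor Vav1 (0.30 ± 0.23) and Malt1 (0.16 ± 0.14), which acts between the receptor and NF-kappaB. The genes of this list under 1 TPM had means from 0.0317 TPM (Themis, at 0 to 0.07 TPM) to 0.435 TPM (Sla2, at 0.28 to 0.59 TPM). Ubash3a was at 0.12 to 0.19 TPM in FA and 0 to 0.10 TPM in PBS tumours. It was the only 1 of the 21 with every FA tumour above every PBS tumour, as in 3.56% of the fainter genes. Themis, Sla2 and Ubash3a are named here after their values were seen. In the list of 21 homing, survival and ligand genes, 12 were tested, none was called, and 10 were higher in FA and 2 lower. FA replicate 3 was highest for 12 of the 21. Mean TPM was higher in FA for 17 of the 21, beside 51.8% of tested and 53.5% of fainter genes, and for 12 without FA replicate 3. Of the 12 tested, 2 had a limma unadjusted p under 0.05, where 1.28% of all tested genes had one. These were genes of T cell attracting chemokines. Cxcl10 was at 6.54, 15.45 and 7.56 TPM in FA and 6.37, 3.79 and 3.52 TPM in PBS tumours, a difference of 0.91 ± 0.34 with a limma adjusted p of 1. Ccl5 was at 7.45, 6.41 and 9.33 TPM in FA and 6.93, 3.72 and 4.64 TPM in PBS tumours, a difference of 0.54 ± 0.22 with a limma adjusted p of 1. Every FA tumour exceeded every PBS tumour for Cxcl10, as in 2.48% of all tested genes, but not for Ccl5. Ccr7, a homing receptor for lymph nodes, differed by 0.33 ± 0.21. Slamf6, a receptor of T, NK and NKT cells, was at 0.66, 1.01 and 0.72 TPM in FA and 1.32, 1.87 and 0.96 TPM in PBS tumours (-0.40 ± 0.20).

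Markers of other cells moved with the lymphocyte genes in part. All 7 macrophage markers and all 3 endothelial markers were highest in FA replicate 3. So were 4 of 5 B cell, 4 of 5 dendritic cell and 3 of 4 ductal tumour markers. B cell markers summed to 0.87 to 2.54 TPM in FA and 0.99 to 1.26 TPM in PBS tumours, and dendritic cell markers to 10.2 to 20.4 and 10.6 to 13.2 TPM. Mast cell and ILC2 markers, 5 genes, summed to 15, 39.6 and 32.7 TPM in FA and 17.9 to 23.4 TPM in PBS tumours, with FA replicate 1 lowest and FA replicate 2 highest. Of the gamma-delta T cell list, Il17a was listed at 0 in all tumours and the constant gene Trdc was at 0.03 to 0.32 TPM, whereas Sox13, also transcribed in other cells, was at 24.99 to 34.59 TPM. Of 5 keratinocyte markers Krt5 was at 0 throughout, while Krt14 was at 6.59 TPM in FA replicate 3 and 1.69 to 2.94 TPM in the others. Krt10 was at 6.68 to 8.62 TPM, Krt15 at 0.13 to 0.45 TPM and Trp63 at 0.09 to 0.19 TPM. The sum of the 5 was 9.91 to 13.9 TPM. The part of these cells in the lymphocyte values was not tested.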

How the data were processed

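RNA of 6 tumours (3 FA, 3 PBS) was sequenced, 1 library each, from RNA of RIN above 8 with a stranded total RNA kit and 12 PCR cycles, per the labels' protocols. The authors deposited TPM for 55357 genes, each column summing to 999999 to 1000001, with values rounded to 2 decimals. Per the submitters' processing notes, the tools were STAR, RSEM, featureCounts and FastQC. For their roles and versions, the genome build and the gene models, nothing is given in the sources used here. Depth is unknown.

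Each column was assigned to its tumour by the description label. FA was compared with PBS in R 4.3.3 with limma 3.58.1 on log2(TPM + 1), a scale that understates changes of low genes, for genes averaging 1 TPM or more, with a variance trend, two-sided p-values and Benjamini-Hochberg adjustment over all 15023 genes at 0.05. The fit was tested on simulated data. Errors are SD or SE as named. The members, gene lists, pairs and tests were chosen with earlier results of these data known. All 37 genes are named. Of the receptor signalling and the homing lists up to 4 genes with the smallest unadjusted p are named, and the marker lists are given by sums and ranges. Themis, Sla2, Ubash3a and single marker genes were picked after their values were seen. Some genes of these lists are not reported here. Levels per Ptprc and the Klrk1 value without FA replicate 3 were added after seeing the data. 3 gamma chain genes of the gamma-delta list were matched by Ensembl ID. Promoter windows came from RefSeq (GRCm38.p6) and transcripts from GENCODE M21. Alternatives covered the pseudocount, filter, scaling, variance model, weights, block, a Ptprc covariate and leaving out each tumour.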

Additional observations from a re-analysis of the deposited data

How the results depend on the processing

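None of the 37 lymphocyte genes was called by limma under any alternative fitted, with 3 to 37 of them tested and a smallest adjusted p of 0.83 to 1. Over all genes, 0 were higher and 0 lower, except 2 higher without the filter, 1 higher with a mean of at least 0.1 TPM, and 0 to 1 lower when 1 tumour was left out. The single lower gene came without FA replicate 3. Array weights reversed Trbc1 (-0.04), Bcl11b (0.12), Klrd1 (-0.11) and Tigit (-0.04). The Ptprc covariate reversed Trbc1 (-0.15), Lat (-0.01), Bcl11b (0.14), Tcf7 (-0.01), Klrd1 (-0.14) and Tigit (-0.04). The cause was not tested.

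Leaving out 1 tumour at a time reversed the direction at least once for Klrk1 (-0.07 to 0.20 where tested, and -0.33 as a value without FA replicate 3, where it missed the filter), Lat (-0.10 to 0.11), Trbc1 (-0.19 to 0.51), Bcl11b (-0.32 to 0.19), Klrd1 (-0.23 to 0.41) and Tigit (-0.09 to 0.32). The other tested genes kept their direction in these fits, though Gata3 ranged from -0.31 to -0.02 and Trac from 0.25 to 0.55.

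Deviations of same-numbered tumours from their group means correlated across genes at -0.208, 0.053 and -0.022, and those of differently numbered tumours at -0.192 to 0.245. The deviations of 3 tumours from their own mean depend on each other, so these values cannot show whether the replicate numbers pair the tumours. With the replicate number as a block, 0 genes were higher, 0 lower and 0 of the 12 lymphocyte genes called, and the median difference of the 12 was 0.101, with 178 genes at an unadjusted p under 0.05 (192 without the block). That median ranged from 0.006 (without FA replicate 3) to 0.223 (without FA replicate 1) when 1 tumour was left out. The value of 0.006 is over only 11 genes, because Klrk1, at -0.33 there, missed the filter, so it is not over the same genes. The median of the 12 was -0.011 with array weights and -0.028 with the Ptprc covariate. The median rho over pairs ranged from 0.30 to 0.50 when 1 tumour was left out, and was 0.30 without FA replicate 1 or FA replicate 3. What depth limits cannot be told from TPM.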
